A study of Mus musculus with 6 samples.

Results

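Genes that goblet cells use to make and secrete mucus were followed in colon RNA-Seq of Gm31629-/- and WT mice with DSS colitis. The 10 genes are Muc2, Tff3, Zg16, Fcgbp, Clca1, Agr2, Spdef, Spink4, Atoh1, and Klk1, chosen by name for their role, and all of them were found among the 27546 genes of the deposited table. The libraries came from distal colon tissue of 3 Gm31629-/- mice, which carry a deletion of the long noncoding RNA gene Gm31629, and of 3 WT littermates, all C57BL/6 and 8 weeks old. Both genotypes drank 3% dextran sulfate sodium (DSS), which damages the lining of the colon, over 7 days, and tissue was taken on day 8. No animals without DSS were included, so neither arm shows colon without DSS treatment. Values are FPKM, which are fragments divided by gene length and by library depth, so that levels of different genes can be set side by side.

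Goblet cells are the mucus-secreting cells of the gut epithelium. The transcription factor Atoh1 commits a dividing crypt cell to the secretory lineage, and Spdef drives its maturation into a goblet cell. The gel-forming mucin Muc2 is folded in the endoplasmic reticulum with the help of the disulfide isomerase Agr2, packed into granules, and released together with Fcgbp, Clca1, Zg16, and Tff3. In the colon this secretion builds the layer that keeps bacteria away from the epithelium, and DSS colitis is widely used to study its loss.

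Under DSS, the 10 genes split by direction. Clca1, Zg16, Tff3, and Fcgbp rose in Gm31629-/- mice, by 7.79-fold, 4.29-fold, 3.27-fold, and 2.13-fold. Agr2, Spdef, and Atoh1 fell, with levels 2.002-fold, 1.96-fold, and 1.70-fold higher in WT mice. Muc2, Spink4, and Klk1 did not pass the test. Throughout, a gene passed at a Benjamini-Hochberg adjusted p under 0.05 (limma on log2(FPKM + 1), adjusted over the 14657 genes whose mean FPKM reached 0.5) and was called when its log2 fold change was also above 1 or below -1. Of the 10 genes, 4 were called higher, where 18.4% of all tested genes were, and 1 was called lower, where 4.64% were, so that 5 were called against 23.1% of all tested genes. By adjusted p alone, 4 were higher and 3 lower, against 28.9% and 14.6% of all tested genes. The same 7 genes were those whose groups did not overlap, 4 higher and 3 lower, which was so for 36.3% of all tested genes in the higher direction, 21.5% in the lower, and 57.8% in either. Over all tested genes, 2704 were called higher and 680 lower as deposited, 2242 and 1225 after median ratio scaling, and 5201 and 204 after scaling to epithelial markers. The median log2 fold change of the 10 genes was -0.17, beside 0.15 over all tested genes, a value that lies between the higher and lower members of a split list. In bulk tissue, fewer goblet cells and less RNA per goblet cell cannot be told apart.

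**Figure D1:**
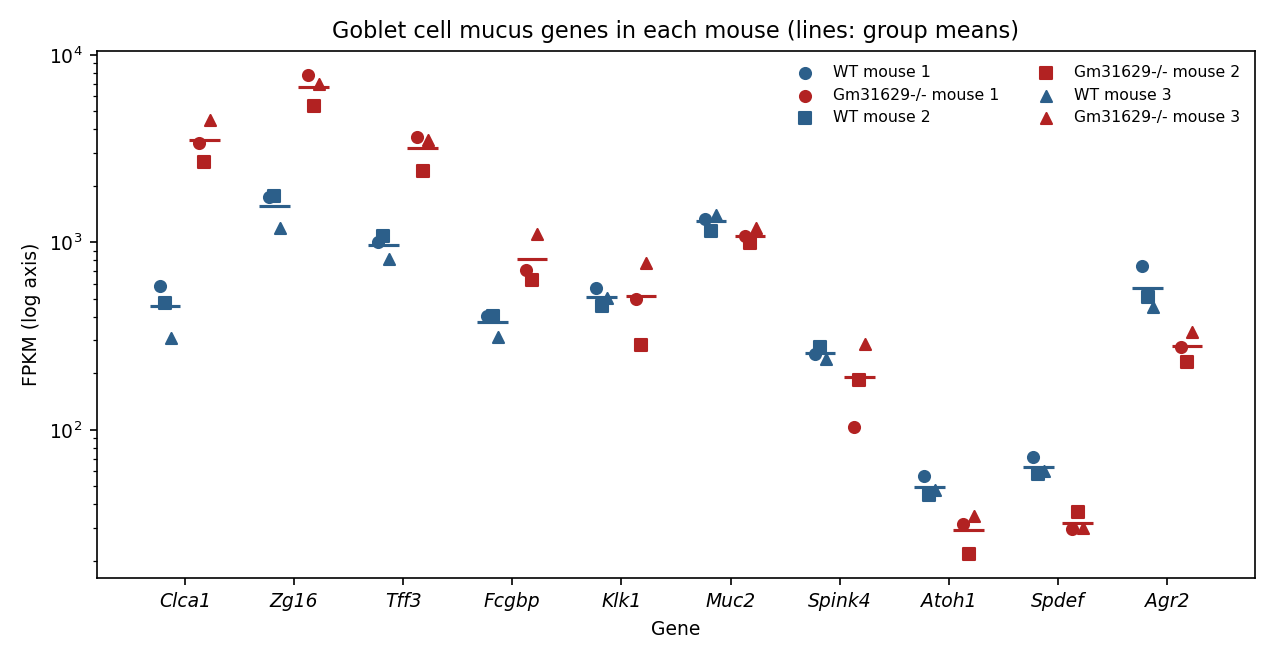
FPKM (log axis) of the 10 genes in each of the 6 mice, WT in blue and Gm31629-/- in red, with a marker shape for each replicate number and a line at each group mean. Clca1, Zg16, Tff3, and Fcgbp have all red points above all blue points, Agr2, Spdef, and Atoh1 have all red points below, and Klk1, Muc2, and Spink4 overlap.

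The promoter windows of members that moved in different directions are shown here, from 250 bases before to 50 bases after the annotated start, as given by RefSeq for GRCm38.p6. RefSeq windows were matched for 6 of the 10 genes (Muc2, Fcgbp, Agr2, Spdef, Atoh1, Klk1) and not for Tff3, Zg16, Clca1, and Spink4. Printed are Fcgbp at chr7:28070986-28071285 (plus strand), which rose, Muc2 at chr7:141690090-141690389 (plus strand), which did not pass, and Agr2 at chr12:35992675-35992974 (plus strand) and Spdef at chr17:27728902-27729201 (minus strand), which fell. Each reads 5′ to 3′, and capitals mark the E box CANNTG, the 6-base motif that basic helix-loop-helix factors such as Atoh1 bind, which reads the same on both strands.
Fcgbp: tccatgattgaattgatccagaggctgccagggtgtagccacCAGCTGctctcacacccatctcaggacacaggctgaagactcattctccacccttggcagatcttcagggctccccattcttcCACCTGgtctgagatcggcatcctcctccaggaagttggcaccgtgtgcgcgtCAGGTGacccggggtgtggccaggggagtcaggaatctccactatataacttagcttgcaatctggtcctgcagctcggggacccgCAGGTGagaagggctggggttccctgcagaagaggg
Muc2: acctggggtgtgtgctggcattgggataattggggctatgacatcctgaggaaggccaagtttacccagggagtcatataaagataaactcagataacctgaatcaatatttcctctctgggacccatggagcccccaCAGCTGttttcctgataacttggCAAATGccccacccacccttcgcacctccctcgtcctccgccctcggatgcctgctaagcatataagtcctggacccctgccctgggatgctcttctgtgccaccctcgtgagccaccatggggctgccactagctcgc
Agr2: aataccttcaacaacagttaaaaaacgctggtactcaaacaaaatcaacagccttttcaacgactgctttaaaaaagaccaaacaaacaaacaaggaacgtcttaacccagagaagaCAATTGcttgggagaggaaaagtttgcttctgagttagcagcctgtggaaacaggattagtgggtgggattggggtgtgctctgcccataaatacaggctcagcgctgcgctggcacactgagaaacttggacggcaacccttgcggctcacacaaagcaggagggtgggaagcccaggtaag
Spdef: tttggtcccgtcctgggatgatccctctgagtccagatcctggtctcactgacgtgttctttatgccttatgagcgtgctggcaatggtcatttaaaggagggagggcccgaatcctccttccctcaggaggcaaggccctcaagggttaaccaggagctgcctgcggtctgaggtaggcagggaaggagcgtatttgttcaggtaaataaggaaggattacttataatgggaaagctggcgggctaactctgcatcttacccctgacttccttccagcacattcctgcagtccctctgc
The Fcgbp window held 4 E boxes, that of Klk1 3, that of Muc2 2, and that of Agr2 1, and those of Spdef and Atoh1 held 0. Of all 32851 promoter windows of this length, 72.3% held at least 1 E box, 39.6% at least 2, and 6.49% at least 4. The form CAGCTG, which is also a CANNTG, occurred once each in Fcgbp and Muc2 and in 16.3% of all windows. These are matches of letters in a short window and say nothing of binding.

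Several features of the libraries stood apart from the labels and are given before the single genes. The methods state that male mice were used, yet the Y-linked transcripts Ddx3y, Eif2s3y, Kdm5d, and Uty were listed above 0 only in Gm31629-/- mouse 1, and Xist was at 0.00606 FPKM in that mouse and between 8.35 and 13.8 FPKM in the other 5. Pancreatic acinar transcripts summed to 2771 FPKM over 12 markers in Gm31629-/- mouse 3 and to between 50.3 and 65.03 FPKM in the other 5 libraries, where Cela1 made up most of the sum in 4 and 25.6 FPKM of it in Gm31629-/- mouse 2. Smooth muscle markers were nearly absent from the WT libraries, with a summed 28.4 to 54.3 FPKM over 12 genes against 1604 to 2618 FPKM in Gm31629-/- mice. The posterior Hox gene Hoxd13, a marker of the hindmost gut, had 8.12, 19.2, and 16.4 FPKM in Gm31629-/- mice 1 to 3 and 0 fragments in each WT library, which allows up to 0.0672 FPKM. The groups thus differed in muscle and in some posterior Hox transcripts as well as in genotype. Without Gm31629-/- mouse 1, the log2 fold changes of Clca1 and Tff3 were 2.97 and 1.60 (limma adjusted p = 0.00125 and 0.00421), and without mouse 3 they were 2.77 and 1.62 (adjusted p = 0.00194 and 0.00612). Depth was alike, at 17988100 to 18787800 fragments per library, the total that the FPKM values were divided by, as recovered from the values, and no member had fewer than 853 fragments in any library, so that counting error was at most 3.42% of a value and the spread between mice set the precision.

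Muc2 (ENSMUSG00000025515, chromosome 7, 141690340 to 141754693 of GRCm38, plus strand), the scaffold of the mucus gel, had 1074, 992, and 1188 FPKM in Gm31629-/- mice 1 to 3 and 1338, 1154, and 1399 FPKM in WT mice 1 to 3. The groups overlapped, since Gm31629-/- mouse 3 lay above WT mouse 2. Means were 1084 ± 98.2 and 1297 ± 127.5 FPKM (SD, n = 3 each), with a log2 fold change of -0.26 (95% confidence interval -0.67 to 0.16, limma adjusted p = 0.272). The interval leaves out a 2-fold change in either direction on the deposited scale.

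Clca1 (ENSMUSG00000028255, chromosome 3, 145003817 to 145032776, minus strand), a secreted metalloprotease that processes Muc2 and is one of the main proteins of colonic mucus, changed most. It had 3397, 2696, and 4473 FPKM in Gm31629-/- mice and 583.2, 475.5, and 310.5 FPKM in WT mice. The lowest Gm31629-/- value was far above the highest WT value. The log2 fold change was 2.96 (standard error 0.30, limma adjusted p = 0.000601), higher than that of 97.8% of tested genes.

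Zg16 (ENSMUSG00000049350, chromosome 7, 127050156 to 127087328, minus strand), a lectin that binds the cell wall of gram-positive bacteria, had the highest mean FPKM of the 10 in both groups, although Muc2 was above it in WT mouse 3. Its FPKM was 7827, 5355, and 6977 in Gm31629-/- mice and 1740, 1775, and 1196 in WT mice, so the groups were well separated. Its log2 fold change was 2.101 (standard error 0.26, limma adjusted p = 0.00123). Zg16 is also made by pancreatic acinar cells, and acinar transcripts were present in Gm31629-/- mouse 3. In Gm31629-/- mice 1 and 2, Cela2a was at 0 and Ctrb1 at or below 0.123 FPKM. Other acinar markers were present in these mice, with Clps at 14.9 and 24.9 FPKM, against 4.54 to 8.75 FPKM in WT mice. Cela1 was at 49.8 and 25.6 FPKM in them, against 45.4 to 53.7 FPKM in WT mice. Zg16 was at 7827 and 5355 FPKM in Gm31629-/- mice 1 and 2, and without mouse 3 its log2 fold change was 2.07 (limma adjusted p = 0.00395). The acinar share of Zg16 was not tested.

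Fcgbp (ENSMUSG00000047730, chromosome 7, 28071236 to 28120862, plus strand), a large protein that binds Muc2 within the gel, had 708.6, 631.7, and 1105 FPKM in Gm31629-/- mice and 403.2, 404.2, and 314.1 FPKM in WT mice. The groups did not overlap, and mouse 3 was the highest of the Gm31629-/- mice. It rose by 1.09 on the log2 scale (standard error 0.25, limma adjusted p = 0.0119), close to the threshold. It was 0.85 (adjusted p = 0.0178) without Gm31629-/- mouse 3 and 0.97 (adjusted p = 0.0572) without WT mouse 3, so that either mouse decided whether Fcgbp was called.

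Tff3 (ENSMUSG00000024029, chromosome 17, 31125306 to 31129646, minus strand) encodes a small trefoil peptide that promotes repair of the mucosa. It had 3640, 2389, and 3529 FPKM in Gm31629-/- mice and 1006, 1076, and 809.8 FPKM in WT mice, without overlap. It rose by 1.71 on the log2 scale (standard error 0.24, limma adjusted p = 0.00191).

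Spink4 (ENSMUSG00000028415, chromosome 4, 40920052 to 40931395, plus strand), a secreted peptide of the Kazal serine protease inhibitor family, varied most among the Gm31629-/- mice. It had 103.8, 184.4, and 285.5 FPKM in them and 253.9, 274.7, and 238.8 FPKM in WT mice. Mice 1 and 2 lay below every WT mouse and mouse 3 above all of them. The coefficient of variation was 47.6% in Gm31629-/- mice and 7.04% in WT mice, and the log2 fold change was -0.53 (95% confidence interval -1.33 to 0.27, limma adjusted p = 0.239). Without mouse 3, the library with acinar transcripts, it was -0.88 with an adjusted p of 0.0447, and without mouse 1 it was -0.15 (adjusted p = 0.609).

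Klk1 (ENSMUSG00000063903, chromosome 7, 44225360 to 44229618, plus strand), the tissue kallikrein, a secreted serine protease, also spread widely within the Gm31629-/- group. Its FPKM was 501.1, 283.5, and 770.9 in Gm31629-/- mice and 570.1, 459.5, and 506.4 in WT mice, so that the 3 Gm31629-/- values straddled the WT range. The means were 518.5 ± 244.2 and 512 ± 55.5 FPKM (SD, n = 3 each), and the log2 fold change of -0.09 had a 95% confidence interval of -0.91 to 0.72 (limma adjusted p = 0.846). The acinar pancreas also makes Klk1, and its highest value was in mouse 3. Without that mouse the log2 fold change was -0.44 (adjusted p = 0.252), and without mouse 2 it was 0.28 (adjusted p = 0.331). Of 13 neighboring Klk1b genes, 9 were matched in the table, their FPKM summed to between 0.292 and 2.13 per library, and none reached the filter on low values. How reads shared between Klk1 and these genes were counted was not tested.

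Agr2 (ENSMUSG00000020581, chromosome 12, 35992907 to 36004087, plus strand), the disulfide isomerase that mucin folding depends on, had 275.1, 230.7, and 333.6 FPKM in Gm31629-/- mice and 743.1, 508.2, and 452.1 FPKM in WT mice. The groups did not overlap, and WT mouse 1 was well above its littermates. Its log2 fold change was -1.001 (standard error 0.24, limma adjusted p = 0.0142), which lies on the fold threshold. It was -0.79 (adjusted p = 0.0463) without WT mouse 1, -0.87 (adjusted p = 0.0317) without Gm31629-/- mouse 2, and -0.997 (adjusted p = 0.0303) without Gm31629-/- mouse 1, and in these fits Agr2 was not called.

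Spdef (ENSMUSG00000024215, chromosome 17, 27714352 to 27728955, minus strand), the ETS factor of goblet maturation, was the most uniform of the changed genes. It had 29.4, 36.5, and 29.8 FPKM in Gm31629-/- mice and 71.8, 58.1, and 60.5 FPKM in WT mice, with a wide gap between the groups. The log2 fold change was -0.97 (standard error 0.15, limma adjusted p = 0.00309), just short of the fold threshold. It passed it without Gm31629-/- mouse 2 (-1.07), WT mouse 2 (-1.03), or WT mouse 3 (-1.002).

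Atoh1 (ENSMUSG00000073043, chromosome 6, 64729125 to 64731245, plus strand), the basic helix-loop-helix factor that starts the secretory lineage, was the least abundant by mean FPKM. It had 31.3, 21.8, and 34.6 FPKM in Gm31629-/- mice and 57.01, 44.8, and 47.6 FPKM in WT mice, and the groups did not overlap. The log2 fold change was -0.77 (standard error 0.20, limma adjusted p = 0.0204). The adjusted p was 0.0745 without WT mouse 1 and 0.0631 without WT mouse 3, where Atoh1 did not pass.

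The pool of goblet transcripts differed in size and in make-up. The 10 genes took up 5.05%, 3.82%, and 5.22% of the summed FPKM of Gm31629-/- mice 1 to 3 and 1.92%, 1.80%, and 1.52% of that of WT mice 1 to 3. Zg16, Tff3, and Clca1 together made up 84.5%, 81.4%, and 79.99% of the pool in Gm31629-/- mice, against 49.2%, 53.4%, and 43.4% in WT mice. The share of Muc2 in the pool was 6.11%, 7.74%, and 6.34% in Gm31629-/- mice and 19.8%, 18.5%, and 26.2% in WT mice, although the FPKM of Muc2 itself overlapped between the groups.

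**Figure D2:**
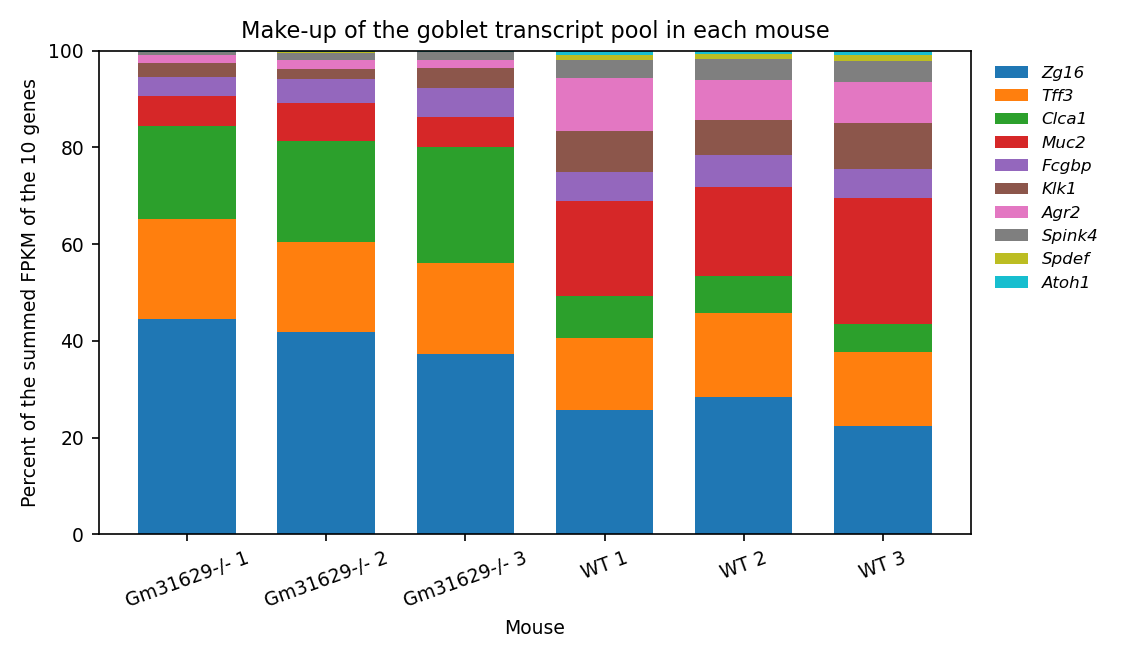
Stacked bars of the percent that each of the 10 genes contributes to their summed FPKM in each mouse. Zg16 alone makes up 44.5%, 41.8%, and 37.3% in Gm31629-/- mice 1 to 3 and 25.7%, 28.5%, and 22.4% in WT mice 1 to 3, and the bands of Muc2, Agr2, Klk1, and Spink4 are thinner in Gm31629-/- mice.

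Ratios of FPKM within a library do not depend on how libraries are scaled. The added 1 in log2(FPKM + 1) leaves some dependence, most for low genes. For 1 FPKM of Muc2 there were 7.29, 5.40, and 5.88 FPKM of Zg16 in Gm31629-/- mice and 1.30, 1.54, and 0.855 in WT mice. Clca1 stood at 3.16, 2.72, and 3.77 times the level of Muc2 in Gm31629-/- mice and at 0.436, 0.412, and 0.222 times in WT mice, so that Clca1 was above Muc2 in every Gm31629-/- library and below it in every WT library. Clca1 and Fcgbp, both released with Muc2, did not move equally either, with 4.79, 4.27, and 4.05 FPKM of Clca1 per FPKM of Fcgbp in Gm31629-/- mice and 1.45, 1.18, and 0.989 in WT mice. On log2(FPKM + 1), the ratios of Clca1, Zg16, Tff3, and Fcgbp to Muc2 were higher in Gm31629-/- mice, by 3.22, 2.36, 1.97, and 1.35, and those of Agr2, Spdef, and Atoh1 were lower, by -0.74, -0.71, and -0.51, with no overlap between the groups for these 7 of 9 ratios. Each of the 7 had an exact two-sided permutation p of 0.10, the smallest that 3 mice against 3 can give, and a Benjamini-Hochberg adjusted p of 0.129 over the 9 ratios, so none passed and this design could not have let one pass. The ratios of Spink4 and Klk1 to Muc2 overlapped (exact p = 0.7 for each).

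Levels were also set against 15 general epithelial markers. The log2 fold change of these was negative for 13 of 15 genes, of which 5 were called lower, where 4.64% of all tested genes were, with a median of -0.51, whereas Epcam, the pan-epithelial adhesion molecule, was at 1109 ± 103.5 and 1104 ± 85.1 FPKM (SD, n = 3 each). Cdx2 fell most of the 15, by a log2 fold change of -3.14. It had 82.1, 11.7, and 14.9 FPKM in Gm31629-/- mice and 200.4, 238.1, and 234.3 FPKM in WT mice. The epithelial scale is a mean of log2 values that includes Cdx2, and a scale without Cdx2 was not tested. After each library was scaled to the mean log2 FPKM of these 15 genes, the median over all tested genes moved from 0.15 to 0.74, and on this scale 34.7% of tested genes were called higher and 1.36% lower. Clca1, Zg16, Tff3, and Fcgbp stayed higher, with log2 fold changes of 3.73, 2.87, 2.48, and 1.86 (limma adjusted p from 0.0001 to 0.000551). Agr2, Spdef, and Atoh1 were at -0.24, -0.22, and -0.02 and no longer passed (adjusted p = 0.388, 0.319, and 0.935), with 95% confidence intervals of -0.76 to 0.29, -0.65 to 0.21, and -0.48 to 0.44. Muc2 changed sign to 0.51 and passed narrowly (adjusted p = 0.0486), and Klk1 and Spink4 were at 0.67 and 0.23 without passing. The 4 secreted products were thus higher on either scale, while the 3 lower genes passed as deposited, on the TPM scale, and after median ratio scaling, and not on the epithelial scale. After median ratio scaling 3 of the 10 genes and 8.42% of tested genes were called lower. Relative to the median of all genes, the log2 fold changes of Agr2, Spdef, and Atoh1 were -0.97, -0.96, and -0.76 on the epithelial scale and -1.15, -1.12, and -0.91 as deposited, and that of Muc2 was -0.23 and -0.40, so that Muc2 lay below the median gene on both scales. As ratios to the epithelial mean within each library, Clca1, Zg16, Tff3, Fcgbp, and Muc2 did not overlap between the groups (exact permutation p = 0.10 each, adjusted p = 0.2 over 10 ratios), and the other 5 genes overlapped.

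**Figure D3:**
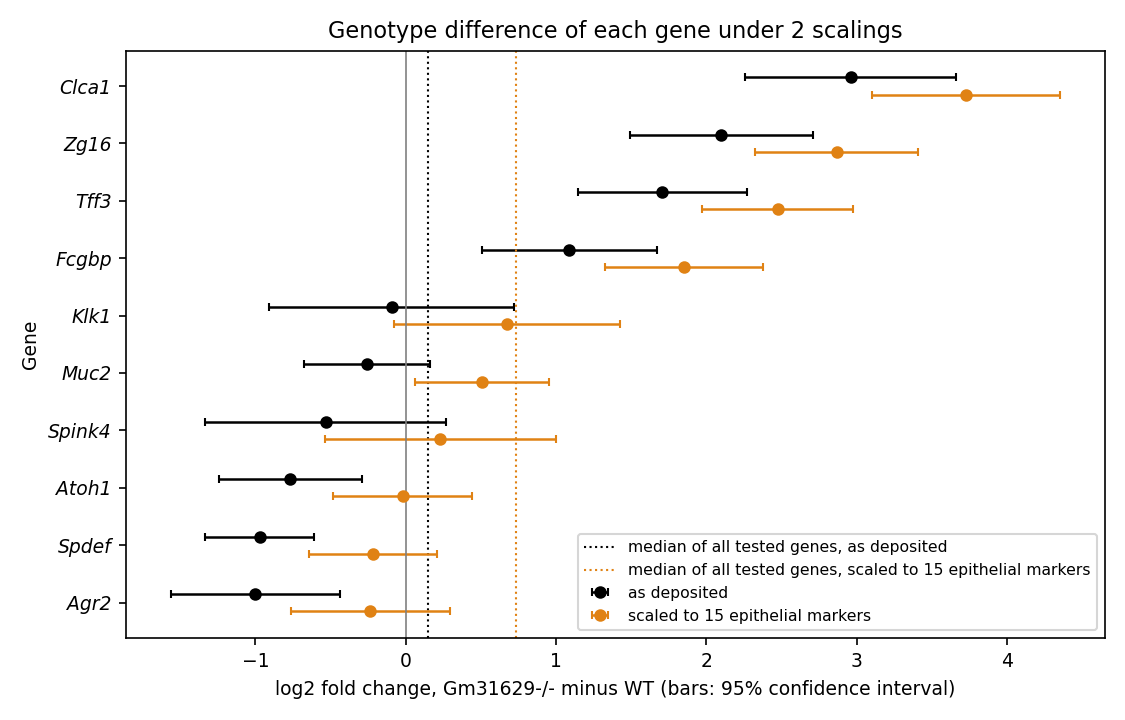
Log2 fold change (Gm31629-/- minus WT) of each gene with its 95% confidence interval, as deposited (black) and after scaling to 15 epithelial markers (orange), with dotted lines at the median of all tested genes under each scaling (0.15 and 0.74). The points of the 4 upper genes stay to the right of both medians, and the intervals of Atoh1, Spdef, and Agr2 exclude 0 as deposited and include it after scaling.

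Other goblet cell genes were read from lists fixed by function. Of the 11 other secreted products and gel-forming mucins, 8 were in the table and 5 passed the filter on low values. Of these 5, 1 was called higher and 1 lower, where 18.4% and 4.64% of all tested genes were. Wfdc2, a secreted protease inhibitor of the whey acidic protein family, had 124.3, 74.8, and 125.9 FPKM in Gm31629-/- mice and 38.7, 26.8, and 42.4 FPKM in WT mice (log2 fold change 1.55, limma adjusted p = 0.00388). Retnlb, the resistin-like goblet peptide that responds to bacteria and injury, moved the other way, with 238.4, 158, and 179 FPKM against 845, 392, and 409.7 FPKM (log2 fold change -1.44, adjusted p = 0.0116). Ang4, an antimicrobial ribonuclease, had 115.7, 22.5, and 70.7 FPKM in Gm31629-/- mice and 20.2, 22.5, and 16.3 FPKM in WT mice, and mouse 2 lay within the WT range (adjusted p = 0.0554). Tff2, a trefoil peptide of stomach and pancreas, was at 16.4 FPKM in Gm31629-/- mouse 3, the library with acinar transcripts, and at or under 0.463 FPKM in the other 5. Muc5b, Muc6, and Muc19 were below the filter, so Muc2 was the only gel-forming mucin of the list with a level to test.

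Of 9 other transcription factors of the lineage tested, 3 were called lower and none higher, where 4.64% and 18.4% of all tested genes were, 4 were lower by adjusted p, where 14.6% were, and 8 had a negative log2 fold change, with a median of -0.35. The called genes were Creb3l4 (log2 fold change -1.69, limma adjusted p = 0.00579), Creb3l1 (-1.49, adjusted p = 0.00212), and Sox9 (-1.12, adjusted p = 0.00228). Creb3l1 and Creb3l4 are membrane-anchored factors of the secretory pathway, and Sox9 marks the crypt base. Creb3l1 had 30.2, 28.7, and 46.01 FPKM in Gm31629-/- mice and 110.3, 83.6, and 101.2 FPKM in WT mice, without overlap. Foxa1, a forkhead factor of the gut epithelium, also fell (-0.69, adjusted p = 0.00926). Klf4, a factor of goblet differentiation and the most abundant of the list, had 271.7, 148.5, and 203.2 FPKM against 245.9, 274.3, and 236.1 FPKM (adjusted p = 0.296). Xbp1, the unfolded protein response factor that plasma cells also use, had a log2 fold change of 0.10 (adjusted p = 0.697), beside B and plasma cell markers that were higher in Gm31629-/- mice. On the epithelial scale, 0 of the 9 were called in either direction.

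Among 18 membrane, stress sensor, and granule release genes, 1 was called higher and 1 lower, where 18.4% and 4.64% of all tested genes were. By adjusted p 6 passed, where 28.9% of all tested genes were higher and 14.6% lower, and 10 were positive, with a median log2 fold change of 0.30. Rep15, a Rab15-binding protein of goblet cells, had 126.9, 73.4, and 128.7 FPKM in Gm31629-/- mice and 41.5, 44.3, and 23.6 FPKM in WT mice (log2 fold change 1.57, limma adjusted p = 0.00699). The 2 granule Rab genes split. Rab27a rose from 10.7 ± 1.74 to 22.1 ± 0.543 FPKM (adjusted p = 0.00291) and Rab3d fell from 53.1 ± 6.93 to 20.9 ± 0.381 FPKM (SD, n = 3 each; adjusted p = 0.000813). Sytl2, which binds Rab27a, and the SNARE gene Snap23 rose by 0.97 and 0.80 (adjusted p = 0.0169 and 0.0125), and Ern2, the IRE1 form of mucous cells, fell by 0.60 (adjusted p = 0.0328). Nlrp6, an inflammasome sensor linked to mucus release, had 82.4, 12.6, and 78.04 FPKM against 144, 111.1, and 136.2 FPKM, and the wide spread in Gm31629-/- mice kept it from passing (adjusted p = 0.0947). Lrrc26, a channel subunit of secretory cells, Vamp8, a granule SNARE, and Stxbp2, its partner in fusion, had log2 fold changes of -0.49, 0.16, and -0.39 (adjusted p = 0.199, 0.345, and 0.0502). Rab27a, Sytl2, and Snap23 are used by many secretory and immune cells, so their source in this tissue cannot be told.

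**Figure D4:**
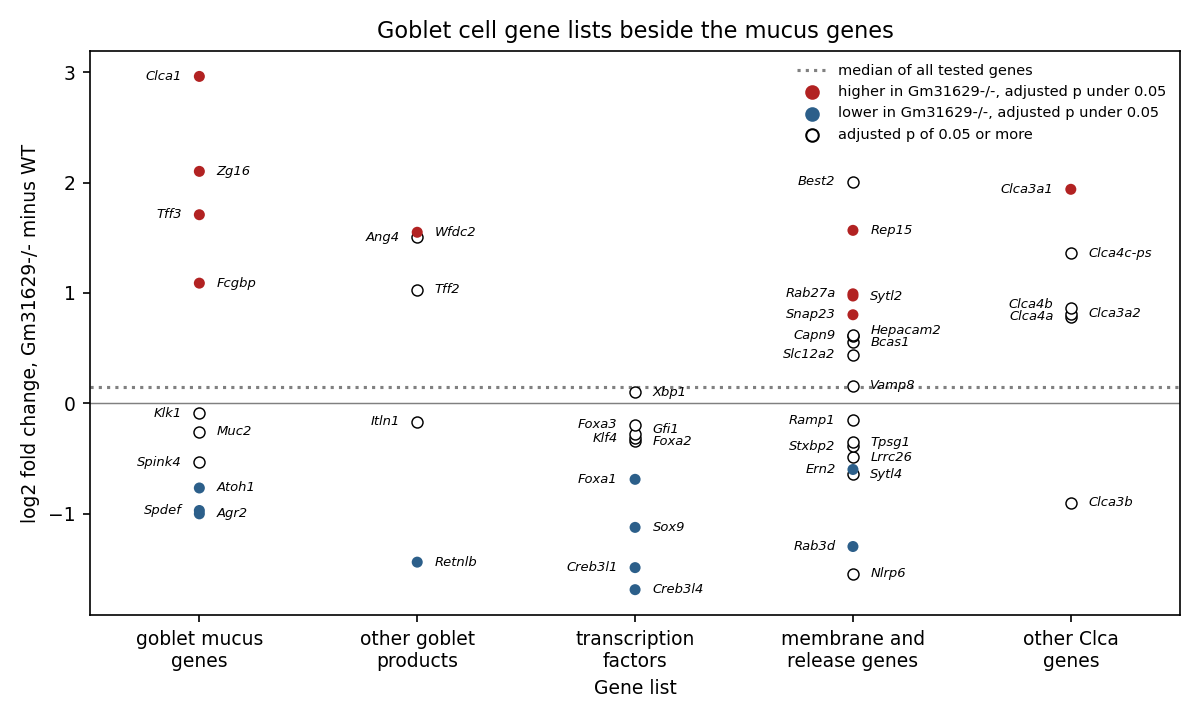
Log2 fold change (Gm31629-/- minus WT) of every tested gene of 5 lists, filled red or blue where the limma adjusted p was under 0.05 and open otherwise, with a dotted line at the median of all tested genes (0.15). The transcription factors lie at or below the line, from -1.69 for Creb3l4 to 0.10 for Xbp1, while the other lists spread to both sides.

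Of the 6 tested relatives of Clca1, 1 was called higher and none lower, where 18.4% and 4.64% of all tested genes were, so the count was near that of all genes. The called gene was Clca3a1, with 3.54, 9.90, and 2.82 FPKM in Gm31629-/- mice and 0.347, 0.670, and 0.491 FPKM in WT mice (log2 fold change 1.94, limma adjusted p = 0.00689). The abundant ones, Clca4b, Clca4a, and Clca3b, did not pass the test. Clca4b had 151.3, 522.5, and 466.7 FPKM in Gm31629-/- mice and 186, 305.4, and 106.3 FPKM in WT mice (adjusted p = 0.236). Clca4a had 57.3, 298.6, and 168.3 FPKM against 95.3, 120.5, and 48.7 FPKM (adjusted p = 0.322), and Clca3b had 19.4, 259.9, and 93.5 FPKM against 128.9, 164, and 151.4 FPKM (adjusted p = 0.395). Reads of near-identical stretches within this family could be split between its members.

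Markers of other cell types also differed between the groups, and their part in the result was not tested. Smooth muscle markers were called higher for 11 of 12 genes, neutrophil markers for 10 of 10, and B and plasma cell markers for 8 of 10, where 18.4% of all tested genes were. Enteroendocrine markers, the other secretory lineage under Atoh1 considered here, were called higher for 4 of 8 tested genes. Pyy, a hormone of the distal gut, was the most abundant of these at 631.6, 1255, and 613.3 FPKM in Gm31629-/- mice and 141.7, 103.9, and 145 FPKM in WT mice, while Chga, a granule protein of these cells, was at 58.3 ± 32.2 and 47.04 ± 2.69 FPKM (SD, n = 3 each). Insl5, a hormone of hindgut endocrine cells, was at 294.8, 625.2, and 270.5 FPKM against 19.7, 4.99, and 7.64 FPKM, and Gcg, the proglucagon gene, at 204.7, 405.2, and 131.4 FPKM against 52.5, 40.3, and 43.95 FPKM. Neurog3, also on the enteroendocrine list, was below the filter on low values and not tested. It went the other way without overlap, at 0, 0, and 0.0325 FPKM in Gm31629-/- mice and 0.614, 0.763, and 0.795 FPKM in WT mice. Absorptive colonocyte markers were called lower for 2 of 12 genes and higher for none, where 4.64% and 18.4% of all tested genes were. Their log2 fold change was negative for 8 genes and positive for 4. Their summed levels were 6500, 2331, and 7547 FPKM in Gm31629-/- mice and 7506 to 9318 FPKM in WT mice. Car1 alone held 1072, 509.1, and 2165 FPKM of these sums in Gm31629-/- mice and 3886, 5459, and 4731 FPKM in WT mice. The log2 fold change was -2.13 for Car1 and 1.31 for Car4 (limma adjusted p = 0.0126 and 0.114). Of 6 tested posterior Hox genes, 3 were called higher (Hoxb13, Hoxd10, and Hoxd13) and 0 lower, where 18.4% and 4.64% of all tested genes were. Hoxb13 had 59, 57.04, and 133.2 FPKM in Gm31629-/- mice and 13.3, 5.66, and 6.03 FPKM in WT mice. Hoxa13 overlapped, with 33.99, 13.99, and 27.7 FPKM against 17.7, 13.4, and 7.73 FPKM (limma adjusted p = 0.0976). Hoxa10 did not differ, with 14.06, 11.85, and 14.23 FPKM against 19.46, 12.5, and 10.49 FPKM (log2 fold change -0.04, adjusted p = 0.911). Posterior position, tissue make-up, and genotype cannot be told apart in these 6 libraries. Squamous markers were low but did not overlap, summing to 2.32, 5.11, and 1.96 FPKM in Gm31629-/- mice and 1.04, 0.917, and 0.969 FPKM in WT mice. Of the 2 tested, Krt14 passed (log2 fold change 0.90, limma adjusted p = 0.0276) and Krt13 did not (adjusted p = 0.4495). Gastric markers summed to at most 16.6 FPKM, in Gm31629-/- mouse 3 from Tff2.

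**Figure D5:**
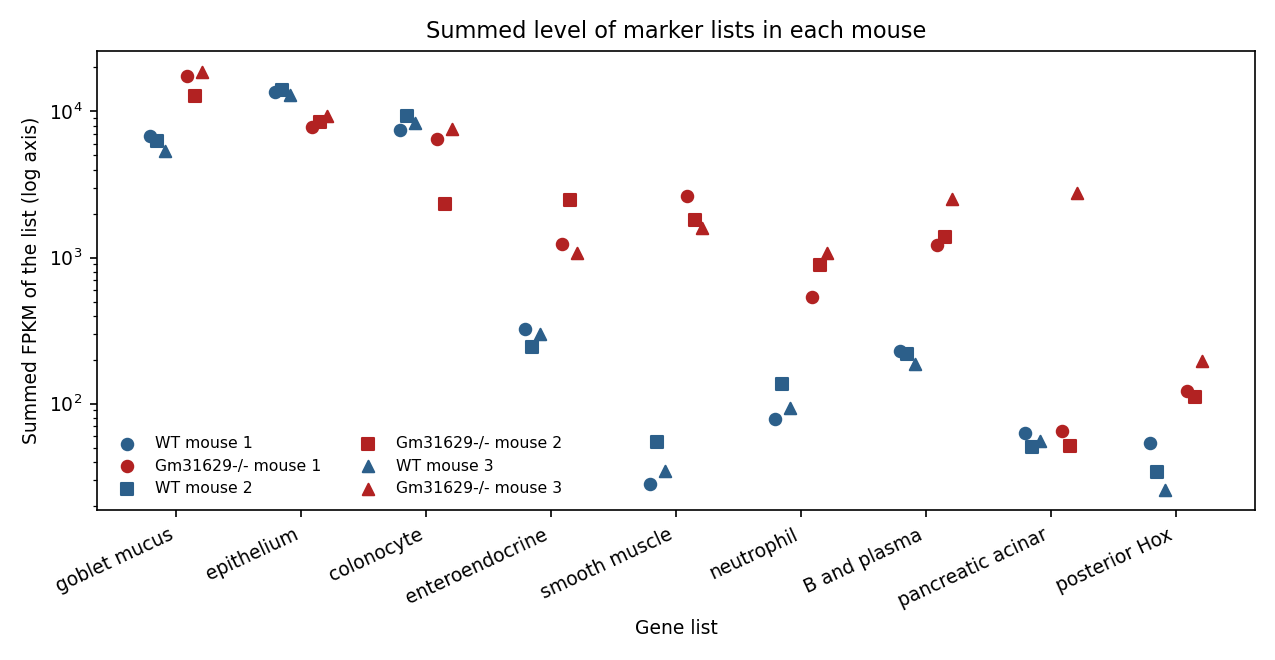
Summed FPKM (log axis) of the goblet genes and of 8 other gene lists in each mouse, WT in blue and Gm31629-/- in red. The goblet sum is 12820 to 18730 FPKM in Gm31629-/- mice and 5335 to 6766 FPKM in WT mice, the smooth muscle sum separates the groups most, and the acinar sum of 2771 FPKM belongs to Gm31629-/- mouse 3 alone.

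The genes whose values over the 6 mice most resembled each member were found as the smallest root mean square difference of log2(FPKM + 1), centered on the mean, among the 7242 genes whose mean FPKM reached 5. The pattern of Tff3 was closest to those of Dnajb9, an endoplasmic reticulum chaperone partner (0.10), Tmem37 (0.11), and Cyp2d37-ps (0.14), and that of Zg16 to Tmem37, Tff3, and Nat8f4 (0.21 to 0.22). Fcgbp was closest to Mgat4a (0.10), Slc6a8 (0.11), and Plin2 (0.14). Clca1 was closest to Mzb1 (0.14), a plasma cell gene, and then to the immunoglobulin segments Ighv5-9-1 and Igkv10-96 (0.29 each). In WT mice, Mzb1 was at 1.31, 0.982, and 0.588 FPKM and Ighv5-9-1 at 0.916, 0.941, and 0 FPKM. At such levels the added 1 shrinks the difference between the groups, which it does not do for Clca1. The likeness of these 2 genes to Clca1 thus depends on the added 1, and a measure without it was not tested. Spink4 was closest to Trp53i11 (0.14) and Smagp (0.17). Klk1 was closest to Lypd8 (0.11), an abundant secreted protein of colonocytes, which had 12270, 8525, and 18660 FPKM in Gm31629-/- mice and 14650, 12790, and 14390 FPKM in WT mice. The next 2 for Klk1 were Sytl1 (0.15) and Tspan3 (0.18). Muc2 was closest to Mrpl51, Ndufs6, and Idnk (0.05 each), Spdef to Rps2-ps10, Sco1, and Stt3a (0.08 each), Atoh1 to Tpi1 (0.09), Ptcd2 (0.10), and mt-Co1 (0.11), and Agr2 to Nudt2 (0.16), Atoh1 (0.19), and Slc5a8 (0.20). Agr2 and Atoh1 were each other's nearest member (0.19), whereas for Muc2 the nearest member, Atoh1, ranked only 3004 among all candidates. Since many genes separate the groups, such likeness is a description of 6 values only.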

How the data were processed

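RNA-Seq libraries of distal colon from 3 Gm31629-/- and 3 WT mice were grouped by the genotype in their labels. The authors deposited FPKM values, 1 column per mouse. The submitters' processing notes name HISAT2 2.1.0, HTSeq 0.6.0, and GRCm38, and the annotation is not given in the sources used here. The methods speak of RNA pooled from 3 mice per genotype, while the table holds separate columns, which were treated as mice, so p-values measure the spread between these libraries. Symbols, positions, and exon lengths came from GENCODE M21 (GRCm38), which matched 27488 of 27546 identifiers, and no exon base of the 10 genes was shared with another gene. Fragments were recovered from FPKM, exon length, and depth. Between 96.3% and 97.2% of values up to 20 fragments lay within 0.1 of a whole number. A value of 0 allows up to 3 fragments, and such limits cover counting error only. Tff1, Muc5ac, and Fcgbpl1 were not analysed here.

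Genes whose mean FPKM reached 0.5 entered the test (14657 genes). Values were taken as log2(FPKM + 1) and the genotypes compared by limma (version 3.58.1, R 4.3.3), using a moderated fit with an intensity trend. P-values were adjusted by Benjamini-Hochberg, and fold changes on this scale understate those of low genes. The scripts were tested on simulated data. Within each genotype, libraries were too unlike for 1 to be a copy of another (chi-square of 29.1 to 131 per gene). The alternatives were a pseudocount of 0.1, no filter, a filter at 5 FPKM, 3 scalings, eBayes without a trend, voom on recovered fragments, the replicate number as a block, and leaving out each mouse. The 10 genes, the lists, and the tests were chosen with earlier results of these data known. Named are all 10 genes, in each goblet or family list the called genes and up to 4 others of highest mean FPKM, in each other list up to 3 of highest mean FPKM, and for each of the 10 genes the 3 of nearest pattern, of which 1 is not reported here. Rab27a, Sytl2, Snap23, Ern2, Muc5b, Muc6, Muc19, Cela2a, Hoxd10, Hoxd13, Chga, Neurog3, Epcam, Cdx2, and the sex-linked genes were named after their values were seen.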

Additional observations from a re-analysis of the deposited data

How the results depend on the processing

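Clca1, Zg16, and Tff3 were called higher in 15 of 15 alternatives, with log2 fold changes from 2.70 to 3.73, 1.84 to 2.87, and 1.45 to 2.48. Fcgbp was called in 12 of 15, and it was 0.83 (limma adjusted p = 0.0499) with the median ratio. Of the 10 genes, 3 or 4 were called higher under every setting and in every fit without 1 mouse. Calls of lower genes sat on the fold threshold. Their number was 1 as deposited, 0 on the TPM scale, 3 with the median ratio (Agr2, Spdef, and Atoh1), 0 on the epithelial scale, and 0 to 2 without 1 mouse. By adjusted p alone, 3 genes were lower as deposited, 0 on the epithelial scale, and 2 to 4 without 1 mouse. Signs changed for genes that had not passed. On the epithelial scale Muc2, Klk1, and Spink4 went to 0.51, 0.67, and 0.23, which relative to the median of all genes on that scale (0.74) were still negative, at -0.23, -0.063, and -0.51, and without 1 mouse Klk1 ran from -0.44 (without Gm31629-/- mouse 3) to 0.28 (without Gm31629-/- mouse 2). In the lists, the epithelial scale gave 9 higher and 0 lower release genes, 0 lower transcription factors, 2 higher and 0 lower other products, and 3 higher Clca relatives. As deposited, 18, 9, 5, and 6 genes of these lists were tested. On the epithelial scale 34.7% of all tested genes were called higher and 1.36% lower, so few lower calls were to be had in any list. Without 1 mouse, calls of higher genes numbered 1 to 4 among release genes, 1 to 2 among other products, and 1 to 4 among Clca relatives. The highest of these counts came without Gm31629-/- mouse 2 for the first 2 lists and without Gm31629-/- mouse 1 for the Clca relatives. Over all genes, 2295 to 2913 were called higher in the fits without 1 mouse, which tested 14332 to 14865 genes. The median ratio gave 2242 higher and 1225 lower genes in all, against 2704 and 680 as deposited, and moved the median from 0.15 to -0.06. Mice with the same replicate number did not deviate together (correlation of deviations over genes 0.036, -0.108, and 0.014), and pairs of unlike number ran from -0.133 to 0.116. These values gave no sign of pairing by number, but with 3 mice per group they cannot settle whether mice were paired or shared a batch. With the replicate block 4 of the 10 genes were called higher and 1 lower. Counting error was at most 3.42% for the 10 genes.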
